A study of Rattus norvegicus with 9 samples.

Results

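The 9 genes described here encode neurotrophic factors and their receptors: Ngfr, Bdnf, Gdnf, Artn, Gfra1, Ret, Cntf, Lif and Ntrk2. They were chosen by name from the 14506 genes that had a feature with 1 gene symbol on the array, and each of the 9 was represented by 1 feature. In cultured rat cells the receptor genes Ngfr and Gfra1 were 18.9-fold to 36.8-fold higher in both kinds of Schwann cell than in skin-derived precursors, Cntf was higher in both, and Bdnf was lower in both. Lif and Gdnf were higher in nerve Schwann cells than in the precursors, but the calls of Gdnf and of Cntf in nerve Schwann cells were lost when each array was centred on its median. Ret, Artn and Ntrk2 did not pass the test in either comparison with the precursors.

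Neurotrophic factors are proteins, most of them secreted, that keep neurons alive and support axon growth, and Schwann cells, the glia of peripheral nerve, are a known source of them after nerve injury. Neurotrophins such as BDNF act through TRK receptor kinases, among them TRKB, the product of Ntrk2, and through the low-affinity receptor encoded by Ngfr. GDNF and artemin, the product of Artn, bind a GFRA co-receptor anchored to the cell surface by a lipid, and the complex signals through the kinase RET. CNTF and LIF belong to the interleukin 6 family of cytokines and share the signalling chain gp130, encoded by Il6st, together with the LIF receptor.

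RNA was measured on Affymetrix whole-transcript rat arrays in 3 groups of 3 samples, all of them cultures from adult rats of the Sprague Dawley strain, with no genetic change named. Nerve Schwann cells came from the sciatic nerve, and SKP-derived Schwann cells were grown from the skin-derived precursors, SKPs, of dorsal trunk skin after plating in Schwann cell growth medium. The third group was the SKPs themselves, collected as floating spheres, whereas both Schwann cell cultures were passaged, grown to confluence in that medium and then collected. Culture form and medium therefore differ together with cell type between the SKPs and the other groups. The labels call the SKP arrays a reanalysis of earlier samples, so an array batch and the SKP group cannot be told apart, and the tissue field reads dermis for all 9 arrays. The labels state neither a purification step nor whether replicates came from separate animals, so the p-values measure the spread between these samples, which may be technical.

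Of 8 Schwann cell marker genes chosen for checking the labels, 6 were measured, and all 6 were higher in both Schwann cell groups than in SKPs. Their mean log2 level was 11.65 to 11.77 on the nerve Schwann cell arrays, 10.98 to 11.86 on the SKP-derived arrays and 5.93 to 6.30 on the SKP arrays. The 8 markers of dermal mesenchyme and SKPs averaged 8.0 to 9.63, 7.76 to 10.27 and 10.37 to 12.01 in the same order, and 5 of the 8 were lower in each Schwann cell group. The highest mesenchymal mean among the Schwann cell arrays was that of SKP-derived array 2. Since the samples are bulk RNA, fewer cells of a type and less RNA per cell cannot be told apart in any of the values.

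Levels are given as the deposited log2 values, and differences are log2 differences of group means, with 95% intervals and p-values from limma adjusted with Benjamini-Hochberg over the 14506 genes. Calls required an adjusted p under 0.05. The median of all features was 6.82 to 6.87 on the nerve Schwann cell arrays, 6.33 to 6.44 on the SKP-derived arrays and 6.2 to 6.27 on the SKP arrays. As deposited, the median difference over all genes was 0.46 for nerve Schwann cells minus SKPs, -0.01 for SKP-derived Schwann cells minus SKPs and -0.45 for SKP-derived minus nerve Schwann cells. After cyclic loess, which aligns the arrays across the range of levels, these medians were -0.03, -0.03 and -0.02; differences are as deposited unless cyclic loess is named. Both comparisons with SKPs use the same 3 SKP arrays, so the values of one are not independent of those of the other.

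Among the 9 genes, limma called 5 higher and 1 lower when nerve Schwann cells were set against SKPs, on both scales. The shares for all genes were 49.7% higher and 14.9% lower as deposited, so the count of members was near the background on that scale, and 22.4% and 25.6% after cyclic loess. For SKP-derived Schwann cells against SKPs, 3 were higher and 1 lower on both scales, beside 19.3% and 22.3% of all genes as deposited and 18.6% and 23.9% after cyclic loess. For SKP-derived against nerve Schwann cells, 1 was higher and 4 lower as deposited, beside 1.33% and 42.3% of all genes, and 0 of the 9 were called after cyclic loess, beside 0.731% and 0.6%. At an unadjusted limma p under 0.05, 1 was then higher, Cntf, and 1 lower, Gdnf. The arrays of the compared groups did not overlap for 8, 4 and 5 of the 9 genes in these comparisons as deposited, beside 73.5%, 47.9% and 62.3% of all genes. The calls between both Schwann cell types thus depended on how the arrays were scaled.

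**Figure D1:**
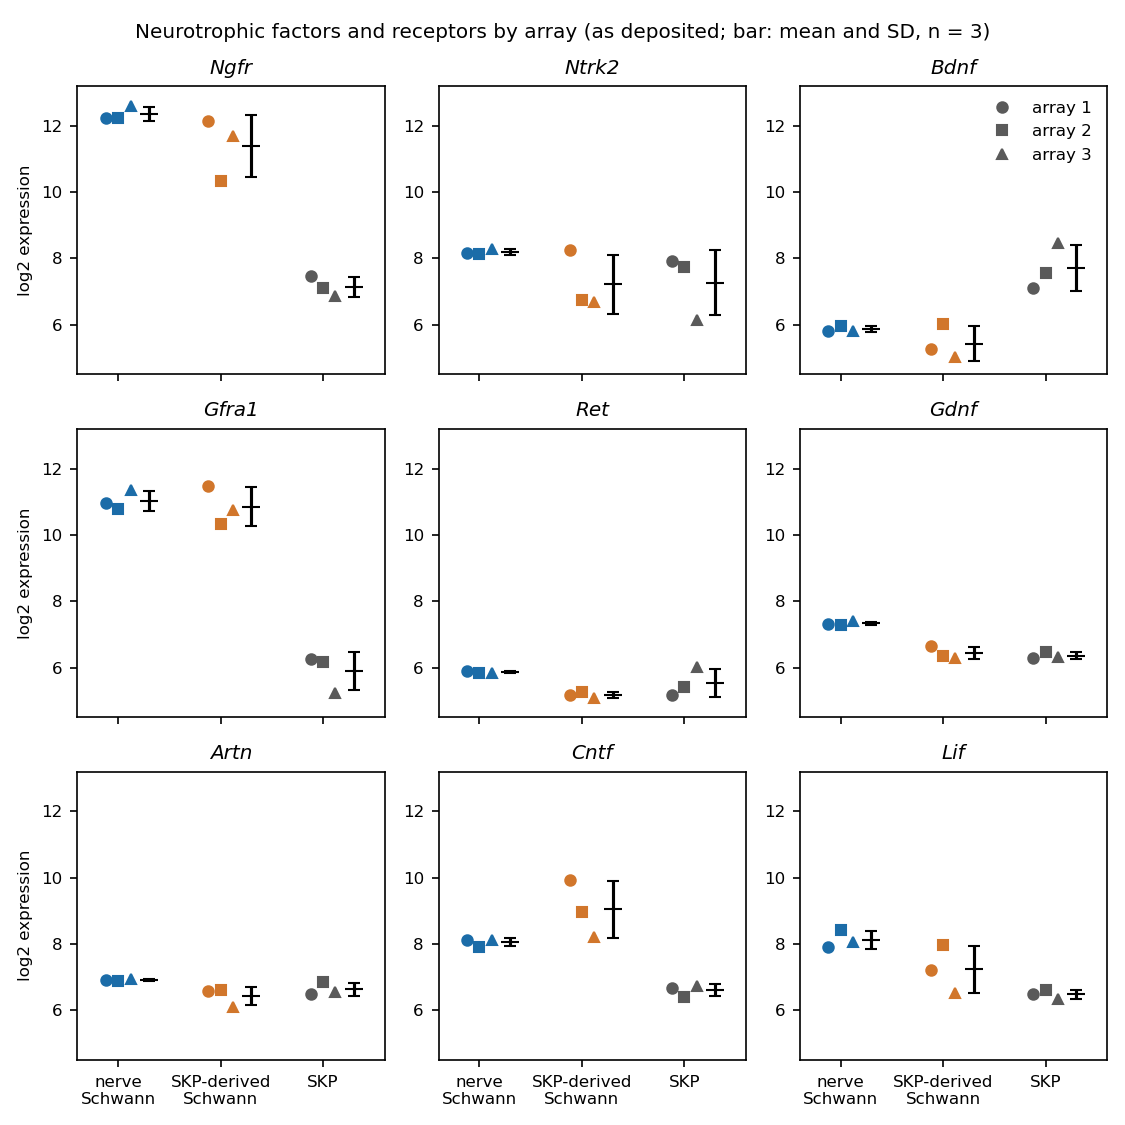
Deposited log2 level of each of the 9 genes on every array, with 1 panel per gene, the 3 cell groups on the x axis, 1 point per array and a bar at the group mean. Ngfr and Gfra1 lie above 10 on all 6 Schwann cell arrays and below 8 on all 3 SKP arrays, and Bdnf is above 7 on the SKP arrays alone.

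Among the receptors, Ngfr, whose product binds all neurotrophins with low affinity and marks immature and denervated Schwann cells, had log2 levels of 12.25, 12.22 and 12.58 on the nerve Schwann cell arrays. It read 12.14, 10.33 and 11.68 on the SKP-derived arrays and 7.47, 7.11 and 6.86 on the SKP arrays. Every Schwann cell array was above every SKP array, and SKP-derived array 2 was the lowest of the 6. The group means were 12.35 ± 0.20 (SD, n = 3), 11.39 ± 0.94 and 7.15 ± 0.31. Ngfr was 36.8-fold higher in nerve Schwann cells than in the SKPs, a log2 difference of 5.20 (SE 0.39, limma adjusted p = 1.44e-05). In SKP-derived Schwann cells it was 18.9-fold higher, a difference of 4.24 (limma adjusted p = 4.66e-05). The SKP-derived mean minus the nerve mean was -0.96, with an interval from -1.85 to -0.08, and this was not called (limma adjusted p = 0.073), although the groups did not overlap. Without SKP-derived array 1 that difference was -1.34 and was called (limma adjusted p = 0.0249).

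Ntrk2 encodes the high-affinity receptor of BDNF, in a full-length kinase form and in truncated forms that a single feature cannot separate. Its log2 levels were 8.17, 8.14 and 8.30 in nerve Schwann cells, 8.26, 6.73 and 6.68 in SKP-derived Schwann cells, and 7.91, 7.74 and 6.14 in SKPs. The nerve arrays were close together, while 1 SKP-derived array stood with the nerve arrays and 1 SKP array lay well under the other two. Nerve Schwann cells exceeded SKPs by 0.94 (interval -0.21 to 2.09, limma adjusted p = 0.134) and by 0.58 after cyclic loess (limma adjusted p = 0.386), and SKP-derived Schwann cells differed from SKPs by -0.04 (interval -1.19 to 1.11, limma adjusted p = 0.957). These intervals are too wide to place Ntrk2 in an order of groups. The difference between both Schwann cell types was -0.98 (limma adjusted p = 0.144) and was called without SKP-derived array 1, at -1.49 (limma adjusted p = 0.036).

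Gfra1 encodes the co-receptor that binds GDNF. On the nerve Schwann cell arrays it read 10.95, 10.78 and 11.36, on the SKP-derived arrays 11.47, 10.33 and 10.75, and on the SKP arrays 6.25, 6.18 and 5.24. Both Schwann cell groups overlapped with each other and stood apart from the SKPs, of which array 3 was the lowest. The means were 11.03 ± 0.30 (SD, n = 3), 10.85 ± 0.58 and 5.89 ± 0.57. On the SKP arrays the Gfra1 feature lay at percentiles from 32.6 to 49.6 of all features, and presence of the transcript there was not assessed. Relative to SKPs, Gfra1 was 35.3-fold higher in nerve Schwann cells, at 5.14 (SE 0.34, limma adjusted p = 7.23e-06). It was 31.2-fold higher in SKP-derived Schwann cells, at 4.96 (limma adjusted p = 9.12e-06). The Schwann cell types differed by -0.18, with an interval of -0.94 to 0.59 (limma adjusted p = 0.688).

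Ret, the kinase through which GDNF and artemin signal, did not follow Gfra1. Its log2 levels were 5.89, 5.84 and 5.84 in nerve Schwann cells, 5.16, 5.25 and 5.07 in SKP-derived Schwann cells, and 5.19, 5.40 and 6.0 in SKPs. On every array its feature lay under the median of all features, at percentiles from 28.6 to 46.9, and no detection calls were used, so presence or absence of the transcript was not assessed. Nerve Schwann cells minus SKPs gave 0.33 as deposited (limma adjusted p = 0.168) and -0.43 after cyclic loess (limma adjusted p = 0.101), so its direction rested on the scaling. Without SKP array 3, the deposited difference was called at 0.56 (limma adjusted p = 0.00618). SKP-derived Schwann cells minus SKPs gave -0.37 (limma adjusted p = 0.158), and -0.48 after cyclic loess (limma adjusted p = 0.0761). SKP-derived Schwann cells were called lower than nerve Schwann cells, at -0.70, as deposited (limma adjusted p = 0.0194), but the difference after cyclic loess was -0.05 (limma adjusted p = 0.906).

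Bdnf, the ligand of the Ntrk2 product, was the only 1 of the 9 genes called lower in Schwann cells than in SKPs. Its log2 levels were 7.12, 7.57 and 8.46 in SKPs, 5.82, 5.97 and 5.81 in nerve Schwann cells, and 5.26, 6.02 and 5.01 in SKP-derived Schwann cells. All SKP arrays were above all Schwann cell arrays, and SKP array 3 was the highest. The means were 7.71 ± 0.68 (SD, n = 3), 5.86 ± 0.09 and 5.43 ± 0.52 in that order. On the Schwann cell arrays the Bdnf feature lay at percentiles from 28.3 to 42.4 of all features, and presence of the transcript there was not assessed. Bdnf was 3.60-fold lower in nerve Schwann cells, relative to SKPs, at -1.85 (SE 0.34, limma adjusted p = 0.00127), and 4.87-fold lower in SKP-derived Schwann cells, at -2.28 (limma adjusted p = 0.000672). After cyclic loess these differences were -2.48 and -2.38. The Schwann cell groups overlapped, with a difference of -0.43 (interval -1.20 to 0.34, limma adjusted p = 0.318) that was 0.10 after cyclic loess. SKP array 3, the highest for Bdnf, also had the highest mean of 6 neuronal markers among the SKP arrays, 7.07 beside 5.97 and 6.02, and the highest mean of 3 melanocyte markers, 6.2 beside 4.78 and 5.18. The neuronal mean was 7.19 to 7.57 on the nerve and 6.78 to 8.24 on the SKP-derived Schwann cell arrays. One of its genes, Nefl, averaged 10.17 and 11.23 in these groups, beside 5.81 in SKPs. On SKP array 3 the neuronal markers Tubb3, Snap25, Nefm and Stmn2 were the highest of the SKP arrays, at 9.43, 7.45, 9.30 and 6.29. Elavl3 lay between the other SKP arrays at 4.88, and Nefl was the lowest at 5.08. The melanocyte mean of that array rested largely on Mlana, at 9.85. The part of these cell types in the level of Bdnf was not tested.

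Gdnf, the ligand of the Gfra1 product, had log2 levels of 7.32, 7.27 and 7.39 in nerve Schwann cells, 6.65, 6.35 and 6.30 in SKP-derived Schwann cells, and 6.28, 6.48 and 6.33 in SKPs. The nerve arrays were above the other 6, which overlapped. Nerve Schwann cells exceeded SKPs by 0.97 (SE 0.14, limma adjusted p = 0.000307). This difference was 0.43 after cyclic loess (limma adjusted p = 0.0188), and 0.37 and not called with median-centred arrays (limma adjusted p = 0.056). SKP-derived Schwann cells differed from SKPs by 0.08, with an interval of -0.23 to 0.38 (limma adjusted p = 0.687), and by 0.01 after cyclic loess. They were called lower than nerve Schwann cells, at -0.89, as deposited (limma adjusted p = 0.00255), but not after cyclic loess, at -0.41 (limma adjusted p = 0.118). The 1265 olfactory, vomeronasal and taste receptor genes on the array, a list chosen after their values were seen, had a median difference of 0.64 between nerve Schwann cells and SKPs as deposited, with 5th and 95th percentiles of -0.30 and 1.39, and of 0.14 after cyclic loess. Whether the difference of Gdnf has the same origin as theirs was not tested.

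Artn encodes artemin, which binds the GFRA3 co-receptor. It read 6.93, 6.89 and 6.94 in nerve Schwann cells, 6.59, 6.60 and 6.11 in SKP-derived Schwann cells, and 6.48, 6.86 and 6.55 in SKPs. The nerve arrays lay above all others, but only narrowly above SKP array 2. The difference from SKPs was 0.28 as deposited (limma adjusted p = 0.164) and -0.27 after cyclic loess (limma adjusted p = 0.175), so no direction can be given. SKP-derived Schwann cells differed from SKPs by -0.20 (limma adjusted p = 0.368), and by -0.27 after cyclic loess. A called difference of -0.48 between SKP-derived and nerve Schwann cells as deposited (limma adjusted p = 0.0424) was 0.00 after cyclic loess.

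Cntf encodes a cytokine that is known from myelinating Schwann cells and is stored in the cell rather than secreted by the usual route. Its log2 levels were 8.12, 7.91 and 8.12 in nerve Schwann cells, 9.94, 8.98 and 8.20 in SKP-derived Schwann cells, and 6.67, 6.40 and 6.74 in SKPs. All 3 groups were separate, and the SKP-derived arrays were the most spread. The means were 8.05 ± 0.12 (SD, n = 3), 9.04 ± 0.87 and 6.60 ± 0.18. Cntf was 5.41-fold higher in SKP-derived Schwann cells than in SKPs, at 2.44 (SE 0.35, limma adjusted p = 0.00057), and 2.72-fold higher in nerve Schwann cells, at 1.44 (limma adjusted p = 0.00571). The latter was 1.13 after cyclic loess (limma adjusted p = 0.0333), and 0.84 and not called with median-centred arrays (limma adjusted p = 0.0745). Cntf was the only 1 of the 9 genes whose SKP-derived mean lay above the nerve mean as deposited. That difference of 0.99 was called (limma adjusted p = 0.0465), was 1.34 after cyclic loess and was then not called (limma adjusted p = 0.101). With median-centred arrays it was 1.46 and was called (limma adjusted p = 0.0484). Without SKP-derived array 1, the highest, the deposited difference was 0.54 and was not called (limma adjusted p = 0.1).

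Lif, a cytokine that acts on the same receptor chains as CNTF, read 7.90, 8.43 and 8.06 in nerve Schwann cells, 7.20, 7.96 and 6.53 in SKP-derived Schwann cells, and 6.48, 6.61 and 6.34 in SKPs. The nerve arrays were well above the SKP arrays, and the SKP-derived arrays reached from within the SKP range into the nerve range. Lif was 3.14-fold higher in nerve Schwann cells than in the SKPs, at 1.65 (SE 0.31, limma adjusted p = 0.00137), and 1.24 after cyclic loess (limma adjusted p = 0.012). SKP-derived Schwann cells exceeded SKPs by 0.75 (interval 0.05 to 1.45), which was not called (limma adjusted p = 0.0796). Without SKP-derived array 3, the lowest of its group, the difference was 1.10 and was called (limma adjusted p = 0.00953). The called difference of -0.90 between SKP-derived and nerve Schwann cells as deposited (limma adjusted p = 0.0414) was -0.49 after cyclic loess (limma adjusted p = 0.433).

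**Figure D2:**
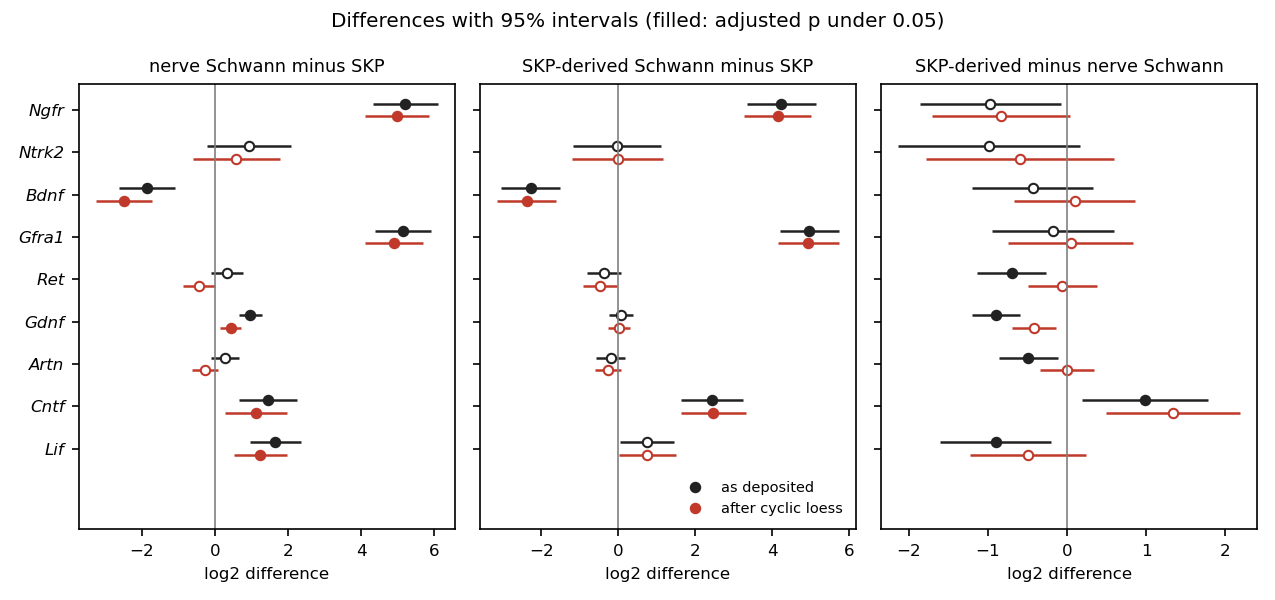
Log2 difference of each of the 9 genes in the 3 comparisons, 1 panel each, with 95% intervals from limma, as deposited (black) and after cyclic loess (red); filled points have an adjusted p under 0.05. The differences of Ngfr, Gfra1, Bdnf and Cntf from SKPs are called on both scales, with that of Bdnf in nerve Schwann cells at -1.85 and -2.48, and in the right panel no point is filled after cyclic loess.

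Promoter windows of 250 bases before the annotated start were read for 6 of the 9 genes, Bdnf, Gdnf, Artn, Gfra1, Ret and Cntf, from a RefSeq table of assembly GRCr8. Bdnf has 6 such windows, and its single feature does not tell which start was used. The windows of Gfra1 and Cntf, the 2 genes with a window that were higher in both Schwann cell groups, are shown with that of Gdnf, the ligand of Gfra1, which was not. Each is written 5′ to 3′ on the strand of the gene and ends at the base before the start, with matches to the searched motifs in capitals. Gfra1 lies on the minus strand at chr1:267555812-267556061, Cntf on the minus strand at chr1:219314536-219314785 and Gdnf on the plus strand at chr2:58621077-58621326.
Gfra1: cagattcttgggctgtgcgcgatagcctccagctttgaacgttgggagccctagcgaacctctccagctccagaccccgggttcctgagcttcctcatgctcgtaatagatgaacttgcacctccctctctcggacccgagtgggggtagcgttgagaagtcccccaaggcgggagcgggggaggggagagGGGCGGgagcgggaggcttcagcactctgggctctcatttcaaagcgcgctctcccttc
Cntf: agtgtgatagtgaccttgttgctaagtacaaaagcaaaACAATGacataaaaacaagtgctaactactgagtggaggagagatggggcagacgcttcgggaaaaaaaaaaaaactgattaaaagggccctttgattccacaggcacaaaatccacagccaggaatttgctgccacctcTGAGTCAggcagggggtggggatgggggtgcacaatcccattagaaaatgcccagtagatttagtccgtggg
Gdnf: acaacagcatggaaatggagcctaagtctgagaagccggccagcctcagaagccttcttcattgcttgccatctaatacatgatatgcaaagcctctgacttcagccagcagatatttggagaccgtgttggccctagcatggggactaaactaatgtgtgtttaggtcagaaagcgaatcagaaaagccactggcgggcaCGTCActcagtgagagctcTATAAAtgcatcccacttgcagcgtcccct
The motifs searched on both strands were ACAAAG and ACAATG (letters bound by SOX factors), TGACGTCA and its shorter form TGACG (CREB), TGANTCA (AP-1), TTCNNNGAA (STAT), GCGNGGGCG (EGR), GGGCGG (SP1), CCAAT and TATAAA. TGACGTCA contains TGACG, and the EGR and SP1 letters can overlap. The Gfra1 window held GGGCGG, 59 bases before the start, as did 30.5% of the 33360 windows of that length in the table. In the Cntf window, ACAATG began 212 bases and TGANTCA 72 bases before the start, which 11.1% and 6.35% of all windows held. TGACG, read on the opposite strand as CGTCA, and TATAAA stood 49 and 30 bases before the start of Gdnf, beside 18.2% and 12.9% of all windows. These matches describe letters in the windows and show no binding.

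The neurotrophin list, 10 of 13 genes measured with members included, held 6 genes that limma called higher and 2 it called lower in nerve Schwann cells relative to SKPs, or 4 and 2 after cyclic loess. All genes gave 49.7% higher and 14.9% lower as deposited, near these counts, and 22.4% and 25.6% after cyclic loess. In SKP-derived Schwann cells 4 were higher and 2 lower on both scales. The shares of all genes there were 19.3% and 22.3%, or 18.6% and 23.9% after cyclic loess. The median difference of the list from SKPs was 0.96 and 0.00, beside 0.46 and -0.01 for all genes. The related Sorcs3 differed by 0.99 in nerve Schwann cells as deposited and by 0.24 after cyclic loess (limma adjusted p = 0.13), and by 0.03 in SKP-derived Schwann cells (limma adjusted p = 0.873). Next to Ngfr, the largest rise was that of Ntrk3, which encodes TRKC, the receptor of neurotrophin 3. Ntrk3 read 9.72, 9.68 and 9.81 in nerve Schwann cells, 9.85, 9.13 and 9.97 in SKP-derived Schwann cells and 5.33, 5.86 and 5.93 in SKPs. It exceeded SKPs by 4.03 (limma adjusted p = 4.59e-06) and 3.94 (limma adjusted p = 5.26e-06), and the Schwann cell groups overlapped. Sort1 and Sorcs2, receptors of the sortilin family that bind proneurotrophins, rose in both groups, Sort1 at 2.25 and 2.46 and Sorcs2 at 2.43 and 1.81, whereas Nradd, a relative of Ngfr, fell, at -1.17 and -1.39. The ligand gene Ntf3 was called higher in nerve Schwann cells by 0.58 as deposited (limma adjusted p = 0.0041), but differed by -0.18 after cyclic loess, and Ntf4 was not called against SKPs.

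Of 7 measured co-receptors and adaptors of the Ngfr product, 2 were higher and 2 lower in each comparison with SKPs as deposited. The shares of all genes were 49.7% and 14.9% in nerve and 19.3% and 22.3% in SKP-derived Schwann cells. After cyclic loess 2 were higher and 3 lower in nerve, and 1 and 2 in SKP-derived Schwann cells. Bex3, an adaptor that binds its intracellular part, was higher by 1.13 in nerve and 1.63 in SKP-derived Schwann cells. The Nogo receptor gene Rtn4r was higher by 1.02 and 0.54, and the second of these calls was lost under 13 of 21 alternative settings, cyclic loess among them (limma adjusted p = 0.051). Ripk2 and Maged1 were lower in both groups, with Ripk2 at -0.94 and -0.98. The nerve call of Maged1, at -0.60, was lost under 6 of 21 settings. Among them were those without nerve array 1 (limma adjusted p = 0.071) and without SKP array 1 (limma adjusted p = 0.0738). Of 8 measured genes that cleave proneurotrophins or regulate that cleavage, none was higher. In nerve Schwann cells 6 were lower and in SKP-derived Schwann cells 7, beside 14.9% and 22.3% of all genes. The list medians were -0.74 and -1.16. The metalloproteinase gene Mmp9 differed from SKPs by -2.81 and -3.20, the neuroserpin gene Serpini1 by -2.43 and -2.97, the urokinase gene Plau by -2.40 and -2.86, and the convertase gene Furin by -0.81 and -1.52. Neuroserpin inhibits plasminogen activators rather than cleaving a proneurotrophin. A mean of 6 macrophage markers was 7.96, 6.41 and 5.71 on the SKP arrays, beside 5.80 to 5.90 and 5.07 to 5.41 in nerve and SKP-derived Schwann cells, and its part in these falls was not tested. Plat, which encodes tissue plasminogen activator, was not called and read 8.15 on SKP array 3 against 10.78 and 11.08 on the other SKP arrays.

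In the GDNF family list, 13 of 14 genes were measured, members included. Against SKPs, nerve Schwann cells had 8 higher and 1 lower gene (6 and 1 after cyclic loess), and SKP-derived Schwann cells 7 and 2 (6 and 1 after cyclic loess). The shares of all genes as deposited were 49.7% higher and 14.9% lower in nerve, and 19.3% and 22.3% in SKP-derived Schwann cells. Beside Gfra1 the higher genes included the co-receptor Gfra2, for neurturin, at 1.10 and 1.14, and Ncam1, an adhesion molecule that can carry GDNF signals without RET, at 2.00 and 2.28. Ncam1 read 10.61, 9.98 and 10.45 in nerve Schwann cells, 10.62, 10.72 and 10.54 in SKP-derived Schwann cells and 7.54, 8.23 and 9.26 in SKPs. Sdc3, a heparan sulfate proteoglycan that binds GDNF, was higher by 3.29 and 2.43. Gfra3, the artemin co-receptor, was higher by 2.05 and 2.45, but its SKP arrays ranged from 5.25 to 7.96, and the nerve call was lost after cyclic loess (limma adjusted p = 0.095) and under 8 other settings, among them without nerve array 1 (limma adjusted p = 0.0804) or 2, or SKP array 1 or 2. The SKP-derived arrays overlapped with the SKP arrays, and their call was lost under 6 of 21 settings, for example without SKP-derived array 1 (limma adjusted p = 0.0974) or SKP array 1 (limma adjusted p = 0.0928). Pspn, the persephin gene, was higher by 1.32 and 0.67, while Gfra4, which encodes its co-receptor, was lower, at -0.37 and -0.89. After cyclic loess these were 0.76 and 0.60 for Pspn, and -0.94 and -0.97 for Gfra4. As deposited, the nerve call of Gfra4, the only lower one of the list, was lost without nerve array 1 or 2 or any single SKP array, which left 0 lower genes.

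**Figure D3:**
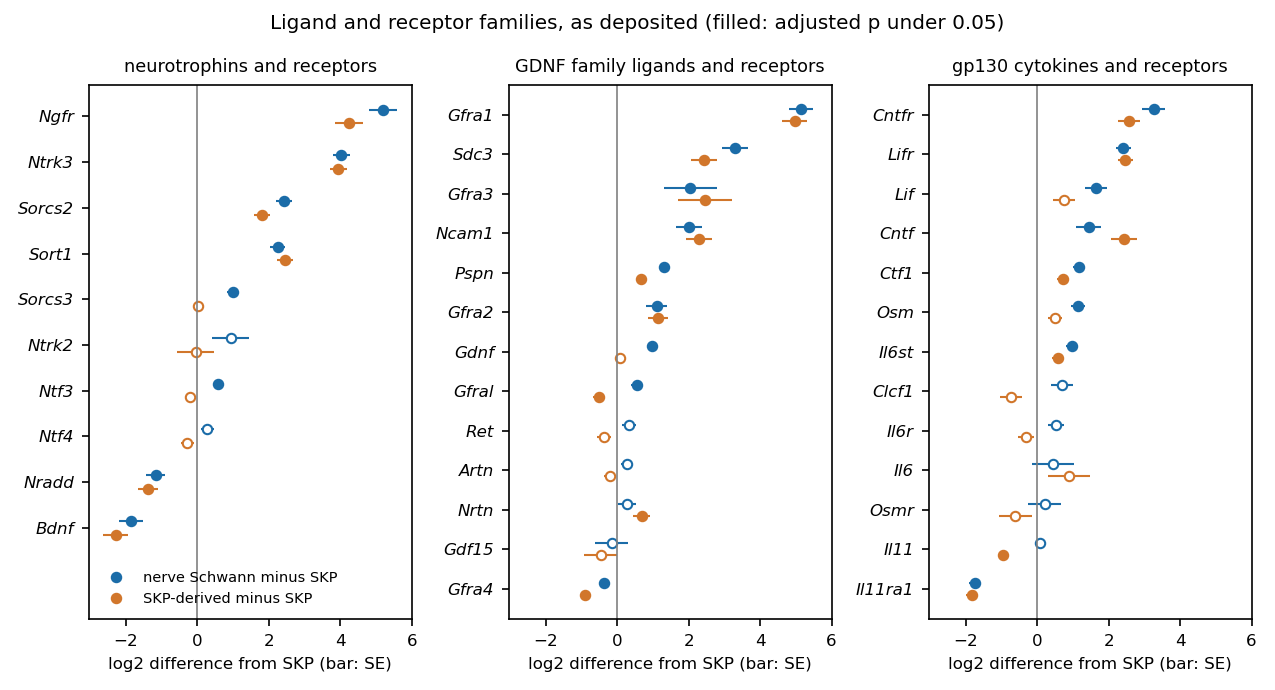
Log2 difference from SKPs of each measured gene of the neurotrophin, GDNF and gp130 families in nerve Schwann cells (blue) and SKP-derived Schwann cells (orange), as deposited, with standard errors; filled points have an adjusted p under 0.05. The receptor genes Ngfr, Ntrk3, Gfra1, Sdc3 and Cntfr lie furthest to the right for nerve Schwann cells, and Bdnf and Il11ra1 furthest to the left.

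Among the gp130 cytokines and receptors, 13 of 14 were measured, members included. In nerve Schwann cells 7 were higher and 1 lower, or 7 and 2 after cyclic loess. The shares of all genes were 49.7% and 14.9%, or 22.4% and 25.6% after cyclic loess, so the higher count as deposited was near the background. In SKP-derived Schwann cells 5 were higher and 2 lower, or 4 and 2 after cyclic loess. All genes there gave 19.3% and 22.3%, or 18.6% and 23.9% after cyclic loess. All 3 receptor chains used by CNTF were called higher in both groups as deposited. Cntfr, the chain specific to CNTF, read 9.51, 9.47 and 9.44 in nerve Schwann cells, 9.11, 7.90 and 9.31 in SKP-derived Schwann cells and 6.17, 6.48 and 5.96 in SKPs. It was higher by 3.27 (limma adjusted p = 4.85e-05) and 2.57 (limma adjusted p = 0.000238). Lifr was higher by 2.41 and 2.46, and Il6st by 0.98 and 0.58, of which the last was 0.41 and not called after cyclic loess (limma adjusted p = 0.084). Il11ra1, the receptor chain of interleukin 11, was lower, at -1.75 and -1.83, and the ligand gene Ctf1, for cardiotrophin, was higher by 1.18 and 0.71, or 0.64 and 0.65 after cyclic loess.

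Downstream of these receptors the lists held calls in both directions. The shares of all genes called higher and lower were 49.7% and 14.9% in nerve and 19.3% and 22.3% in SKP-derived Schwann cells. After cyclic loess they were 22.4% and 25.6%, and 18.6% and 23.9%. In the JAK-STAT3 list, with 11 genes measured, nerve Schwann cells had 2 higher and 3 lower genes, and SKP-derived Schwann cells had 1 higher and 5 lower. After cyclic loess both had 1 higher and 5 lower. Stat3, the transcription factor activated by gp130, was higher by 1.67 and 0.92, while the kinase genes Jak1 and Jak2 were lower, with Jak1 at -1.48 and -1.98 and Jak2 at -1.37 and -1.5. Of 15 measured docking and signalling genes of TRK and RET kinases, 5 were higher and 4 lower in nerve and 4 and 6 in SKP-derived Schwann cells. The median differences from SKPs were -0.18 and -0.73 for the JAK-STAT3 list and 0.01 and -0.38 for the docking list. Over all genes they were 0.46 and -0.01. The docking protein gene Gab1 read 11.85, 11.81 and 11.87 in nerve Schwann cells, 11.27, 10.28 and 10.89 in SKP-derived Schwann cells and 7.26, 7.36 and 7.29 in SKPs, with differences of 4.54 and 3.51 from SKPs. The adaptor Shc3 was higher by 2.22 and 2.38 and Frs2 by 1.38 and 0.73, while the phospholipase gene Plcg1 was lower, at -1.05 and -1.74.

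Other trophic factors of nerve, with 15 of 15 measured, gave 4 higher and 3 lower genes in nerve Schwann cells, or 1 and 6 after cyclic loess, and 1 and 6 in SKP-derived Schwann cells on both scales. The shares of all genes in nerve were 49.7% higher and 14.9% lower, or 22.4% and 25.6% after cyclic loess. In SKP-derived Schwann cells they were 19.3% and 22.3%, or 18.6% and 23.9% after cyclic loess. Ptn, which encodes pleiotrophin, a heparin-binding growth factor, read 9.60, 9.15 and 10.19 in nerve Schwann cells, 7.74, 8.93 and 9.73 in SKP-derived Schwann cells and 5.22, 5.18 and 4.91 in SKPs. It was higher by 4.54 (limma adjusted p = 4.66e-05) and 3.69 (limma adjusted p = 0.000187). Like Bdnf, several factors were lower in both Schwann cell groups. Nrg1, the neuregulin that drives Schwann cell growth, differed from SKPs by -2.84 and -2.12, the apolipoprotein gene Apoe by -2.44 and -2.95, and Manf, which encodes an endoplasmic reticulum stress protein with trophic activity, by -2.38 and -2.08.

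Regulators of the repair state that Schwann cells enter after injury were all measured, and limma called 9 of 10 higher against SKPs in nerve and 7 of 10 in SKP-derived Schwann cells, beside 49.7% and 19.3% of all genes. After cyclic loess these counts were 8 and 7, and Olig1 was then lower in nerve Schwann cells. The list medians were 1.80 and 1.43. Atf3, an injury-induced transcription factor, was higher by 4.13 and 3.05, Zeb2 by 2.67 and 2.22, and Jun, the regulator of the repair state, by 1.78 and 1.22. Shh, a secreted signal induced in injured nerve, read 9.39, 9.69 and 9.51 in nerve Schwann cells, 7.78, 7.54 and 5.55 in SKP-derived Schwann cells and 5.09, 4.62 and 5.05 in SKPs. SKP-derived minus nerve Schwann cells gave -2.58 as deposited (limma adjusted p = 0.00449) and -2.15 after cyclic loess, where it was not called (limma adjusted p = 0.07).

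Between SKP-derived and nerve Schwann cells, 1 of the 92 other list genes measured was higher and 32 were lower as deposited, beside 1.33% and 42.3% of all genes, and 1 was called after cyclic loess. That gene was Id2, an inhibitor of differentiation, which read 11.66, 11.77 and 11.91 in SKP-derived Schwann cells, 11.03, 10.57 and 10.32 in nerve Schwann cells, and 9.98, 9.93 and 10.50 in SKPs. It was higher in SKP-derived Schwann cells by 1.14 as deposited (limma adjusted p = 0.00439) and by 1.23 after cyclic loess (limma adjusted p = 0.033). 

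The genes whose profile over the 9 arrays was most like that of each called member were found by the root mean square difference of profiles centred on their own mean, in log2 units, where smaller is more alike. For Ngfr they were Tubb2b at 0.215, Ank3 at 0.251 and Adcy1 at 0.297, and among the members Gfra1 was nearest to it at 0.459. For Gfra1 they were Cnp, a gene of myelinating glia, at 0.258, Itgb8 at 0.289 and Rassf4 at 0.354. Bdnf was most like Pdk1 at 0.184, Scg2 at 0.221 and Arhgef2 at 0.226. Cntf was less closely matched, with Synpr at 0.321, Nr4a2 at 0.388 and Kcnk1 at 0.399. Lif lay nearest to Runx2 at 0.155, Calcb at 0.202 and Or5p60b at 0.205, and Runx2 was also its nearest gene after cyclic loess. Gdnf, Artn and Ret, which vary little, were most like Psgb1 at 0.0573, Or4c3 at 0.0587 and Dao at 0.0707, Vom1r45 at 0.0655, Ghrhr at 0.0749 and Nol4 at 0.0789, and Catsper2 at 0.0868, Ces2g at 0.0902 and Fzd5 at 0.0942, in that order. A small value is easily reached where a profile is nearly flat, and the SD over arrays was 0.48 for Gdnf, 0.27 for Artn and 0.37 for Ret beside 2.45 for Ngfr. After cyclic loess the rank of likeness, 1 being nearest, was 23 for Arhgef2, 28 for Ghrhr and 49 for Calcb. It was 60, 12 and 300 for Psgb1, Or4c3 and Dao, and 13 and 365 for Catsper2 and Fzd5. The other genes named had ranks from 1 to 8, so several of the likenesses depended on the scaling.

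**Figure D4:**
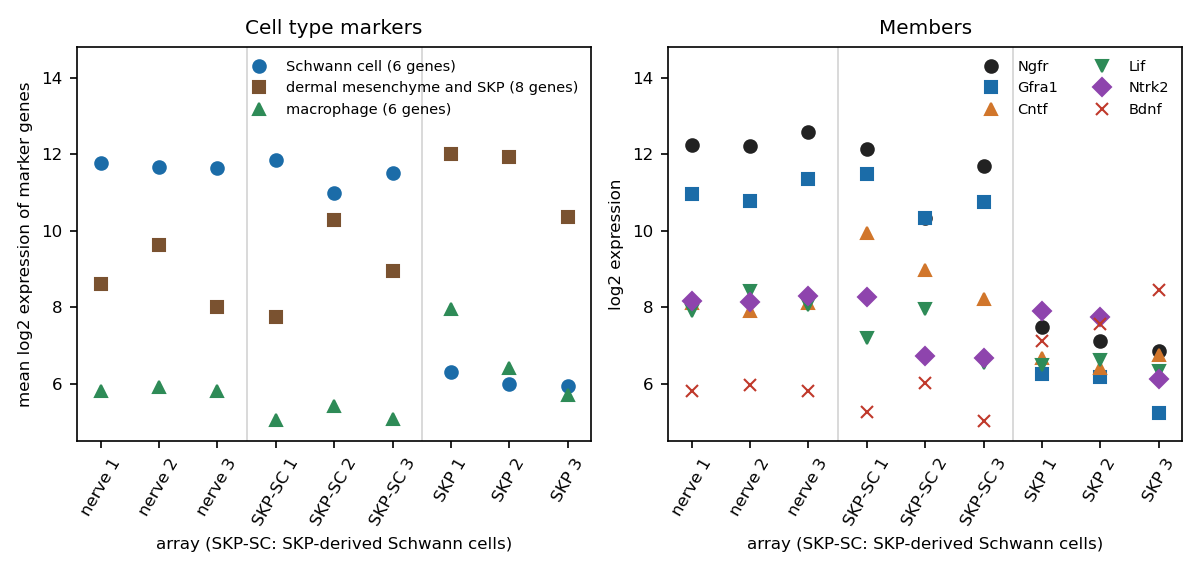
Left panel, mean log2 level of the Schwann cell, mesenchymal and macrophage marker lists on each array; right panel, log2 level of 6 of the 9 genes on the same arrays (SKP-SC, SKP-derived Schwann cells). Schwann cell markers separate both Schwann cell groups from SKPs, mesenchymal markers are highest on the SKP arrays, and SKP array 1 is the highest for macrophage markers at 7.96.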

How the data were processed

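The values analysed were log2 expression values for 29214 features of 9 arrays, deposited by the authors. The submitters' processing notes name RMA and Affymetrix Expression Console. RMA corrects background, normalises arrays and summarises probes. Tool versions, the build and whether all 9 arrays were normalised together are not stated in the sources used. Unequal array medians shift small differences, so cyclic loess values are given beside many deposited ones. Of the features, 15310 had 1 gene symbol, and the feature with the highest mean stood for a gene, leaving 14506. Detection calls and probe signals were not used, and 3 arrays a group limit the precision.

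Group means were fitted to all 9 arrays with limma 3.58.1 (lmFit, eBayes) in R 4.3.3, with Benjamini-Hochberg adjustment over 14506 genes and a threshold of 0.05, and tested on simulated data. Every adjusted p given is from limma. Members, lists and tests were chosen with earlier results of these data known. Genes named were all 9 members, up to 4 called genes per list and comparison with the largest difference, and 3 nearest profiles per called member. Other genes named, such as Jun, Plat, Ntf3, Ntf4, Gfra4, Il6st and Olig1, were chosen after their values were seen. Alternatives were other scalings, filters, feature rules, variance models, array weights, a replicate block, stricter thresholds and leaving out each array. Promoters came from RefSeq GRCr8, unrelated to the deposited values.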

Additional observations from a re-analysis of the deposited data

How the results depend on the processing

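Against SKPs, Ngfr, Gfra1 and Bdnf kept direction and call in both Schwann cell groups under every alternative that included them (20 of 21 for Bdnf). So did Cntf in SKP-derived and Lif in nerve Schwann cells. Nerve differences ranged from 4.6 to 5.37 for Ngfr, 4.54 to 5.32 for Gfra1, -2.48 to -1.48 for Bdnf and 1.05 to 1.76 for Lif. SKP-derived differences ranged from 3.86 to 4.77, 4.64 to 5.22 and -2.58 to -1.91 for the first 3, and 1.98 to 3.04 for Cntf. With each array centred on its median, nerve calls of Gdnf (limma adjusted p = 0.056) and Cntf (limma adjusted p = 0.0745) were lost, leaving 3 members higher. A 2-fold minimum also removed Gdnf, by construction. Between SKP-derived and nerve Schwann cells, 0 members were lower after median centring, and 0 were higher or lower after cyclic loess or quantile normalisation. Over all genes the same comparison gave 193 higher and 6140 lower calls as deposited, 106 and 87 after cyclic loess, 130 and 110 after quantile normalisation and 482 and 234 after median centring. The cause was not tested. In the same comparison 0 were higher with only 2 groups fitted, 0 were higher and 1 lower at an adjusted p under 0.01, and 0 and 0 with a 2-fold minimum. Only 5 members, Ngfr, Gfra1, Cntf, Lif and Ntrk2, lie above the median level. A fit to genes above it left out Bdnf, so 0 lower members in either comparison with SKPs was fixed in advance. Gdnf, Artn and Ret were left out too. Between Schwann cell types 0 were higher and 0 lower there, as Cntf (limma adjusted p = 0.0882) and Lif (limma adjusted p = 0.0832) were not called.

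Of the differences that changed sign, that of Artn between Schwann cell types was the only one called as deposited. Median centring turned the nerve differences of Artn to -0.32 and Ret to -0.28, the SKP-derived difference of Gdnf to -0.0568, and the differences between Schwann cell types of Bdnf to 0.0375 and Gfra1 to 0.29. Cyclic loess gave -0.27 for Artn and -0.43 for Ret in nerve Schwann cells, and 0.10 for Bdnf, 0.000923 for Artn and 0.0495 for Gfra1 between Schwann cell types. Quantile normalisation gave -0.28 for Artn, -0.41 for Ret, -0.0433 for Gdnf in SKP-derived cells and 0.18 for Bdnf between Schwann cell types. Array weights gave 0.34 for Ntrk2 in SKP-derived Schwann cells minus SKPs and 0.31 for Gfra1 between Schwann cell types. With these weights Ret in nerve cells (0.42) and Bdnf between Schwann cell types (-0.60) were called.

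When single arrays were left out, 5 to 6 members were higher and 1 was lower in nerve Schwann cells, 3 to 4 were higher and 1 lower in SKP-derived Schwann cells, and 0 to 1 were higher and 1 to 5 lower between them. Gdnf in SKP-derived Schwann cells minus SKPs ranged from -0.0346 without SKP-derived array 1 to 0.14 without SKP-derived array 3. In the same comparison Ntrk2 was 0.20 and 0.23 without SKP-derived arrays 2 and 3, and 0.28 and 0.20 without SKP arrays 1 and 2. Gfra1 between Schwann cell types ranged from -0.49 without SKP-derived array 1 to 0.0821 without SKP-derived array 2. Without any nerve array or SKP-derived array 3, 1 member, Gdnf, stayed lower between Schwann cell types, and the calls of Artn, Ret and Lif were lost. Lif also lost that call without SKP-derived array 1 or SKP arrays 1 or 2, and Cntf lost it without any nerve array, SKP-derived arrays 1 or 2, or SKP arrays 1 or 2, at 0.54 to 1.03. The cause was not tested.

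Correlations of deviations from group means lay between -0.12 and 0.29 for same-numbered arrays, and between -0.27 and 0.18 for arrays of different number. For nerve and SKP-derived arrays of the same number they were 0.07, 0.29 and 0.15. The ranges overlap, so the numbers are not shown to pair samples. A replicate block changed 1 member call, that of Lif in SKP-derived Schwann cells at 0.75 (limma adjusted p = 0.0368), and left 7120 higher and 2174 lower genes in nerve Schwann cells.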
